A study of Mus musculus with 4 samples.

Results

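The genes described here encode the machinery of oxidative phosphorylation, together with its transcriptional coactivators Ppargc1a and Ppargc1b. They were chosen by name: every gene whose symbol marks a nuclear-encoded subunit of respiratory complexes I to IV or of the ATP synthase (Nduf, Sdh, Uqcr, Cox and Atp5 genes), the complex I assembly factors that share the Nduf prefix (Ndufaf genes), and the 2 coactivators. This gave 92 of 18193 genes with a single-gene probe set on the array, with each gene read from its brightest probe set over the 4 arrays. RNA was measured on 4 single-colour Affymetrix arrays, 1 for each of 4 cultures of p53-/- mouse fetal liver progenitor cells. Of these cultures 1 was transformed with H-RasV12, a Ras GTPase locked in its active state, 1 with myr-Akt, an Akt kinase tethered to membranes by a myristoyl group, and 1 with the transcription factor c-Myc, while the last is non-transformed. All 4 lack p53 and were grown in the same maintenance medium with fetal bovine serum, dexamethasone, nicotinic acid, EGF and HGF. The labels do not say how many clones or animals a culture came from. With 1 array per culture there is no replicate check, so each difference below is between 2 arrays, has no error and no p-value, and could not be set against a spread between cultures.

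Oxidative phosphorylation passes electrons from NADH (through complex I) and succinate (through complex II) to ubiquinone, then through complex III, cytochrome c and complex IV to oxygen. The protons pumped on the way drive the ATP synthase, complex V. Most subunits are encoded in the nucleus and a few in mitochondrial DNA, and the coactivators PGC-1alpha (Ppargc1a) and PGC-1beta (Ppargc1b) raise the transcription of many nuclear subunit genes through factors such as the estrogen-related receptors, NRF1 and GABP. In liver, both coactivators are known for tying mitochondrial gene expression to the supply of nutrients.

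Each array carried the same 2% trimmed mean signal of 500.003, and signals under a floor of 100.001 were set to it before log2 was taken. Of the 92 genes, 86 exceeded the floor somewhere and 83 did so on every array. The 6 at the floor on every array were Cox4i2, Cox7a1, Cox7b2, Cox8b, Ndufa4l2 and Ndufb4, of which all but Ndufb4 are isoforms best known from lung, muscle, testis or hypoxic cells. Ndufb4 was read from its 1 single-gene probe set, with signals between 17.2 and 43.6. Whether that probe set detects the Ndufb4 transcript was not tested. Among hepatoblast and hepatocyte markers, 10 of 13 with a probe set exceeded the floor with H-RasV12, 4 with myr-Akt, 4 with c-Myc and 5 in non-transformed cells. Afp, Ttr and Hnf4a were at the floor in all but the H-RasV12 culture. Other markers of this list went the other way. Log2 differences from non-transformed cells reached down to -3.52 with H-RasV12 and up to 4.02 with c-Myc. The summed signal of the 13 was 10842 with H-RasV12, 5455 with myr-Akt and 7537 with c-Myc, against 7500 in non-transformed cells. The summed signal of 14 mesenchymal and stellate markers was 91891 with H-RasV12, 87296 with myr-Akt and 70690 with c-Myc, against 146355 in non-transformed cells. Of these 14 markers, 13, 9 and 8 exceeded the floor in these cultures, against 13 in non-transformed cells. Biliary and progenitor markers summed to 28113, 14203 and 8013, against 12117, and mesothelial markers to 10452, 34950 and 35361, against 49293 in non-transformed cells. Of 9 endothelial and 8 blood cell markers with a probe set, 1 and 3 were above the floor on any array. The array labelled c-Myc had the lowest Myc signal of the 4 (420.6, against 2285 on the non-transformed array), and whether that probe set detects the introduced sequence was not tested, so each culture is called by its label. In RNA of whole cultures, fewer cells of a type and less RNA per cell cannot be told apart, and the part that the mix of cells had in any difference below was not tested.

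Ppargc1b had the largest upward difference from non-transformed cells among the 92 genes. Its signal was 134.4 with H-RasV12, 908.5 with myr-Akt and 956.9 with c-Myc, against 145.2 in non-transformed cells. The signal was thus high in the myr-Akt and c-Myc cultures and close to the floor in the H-RasV12 and non-transformed cultures. Relative to non-transformed cells it was 6.26 times higher with myr-Akt and 6.59 times higher with c-Myc (log2 differences 2.65 and 2.72), while with H-RasV12 the log2 difference was -0.11. The myr-Akt and c-Myc arrays differed from each other by -0.07. The gene has 1 single-gene probe set, so no further probe set bears on these values. With a pseudocount added in place of the floor, which shrinks differences of dim signals, they were 2.04 and 2.11.

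Ppargc1a, the better known paralog that drives gluconeogenic and mitochondrial genes in fasted liver, did not follow Ppargc1b. Its signal was 241.6 with H-RasV12, 348.7 with myr-Akt and 66.3 with c-Myc, against 193.7 in non-transformed cells. It was 1.80 times higher with myr-Akt than in non-transformed cells and at least 1.94 times lower with c-Myc, where it lay under the floor. The myr-Akt signal was at least 3.49 times that of the c-Myc array. All these signals were dim. The next brightest of its 5 probe sets read 91.2, 134.3 and 24.3 with H-RasV12, myr-Akt and c-Myc, against 99.2 in non-transformed cells, so that it was above the floor on the myr-Akt array alone. Averaged over its probe sets, its log2 differences from non-transformed cells were 0.25 with myr-Akt and -0.19 with c-Myc, short of 1.5-fold in both.

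**Figure D1:**
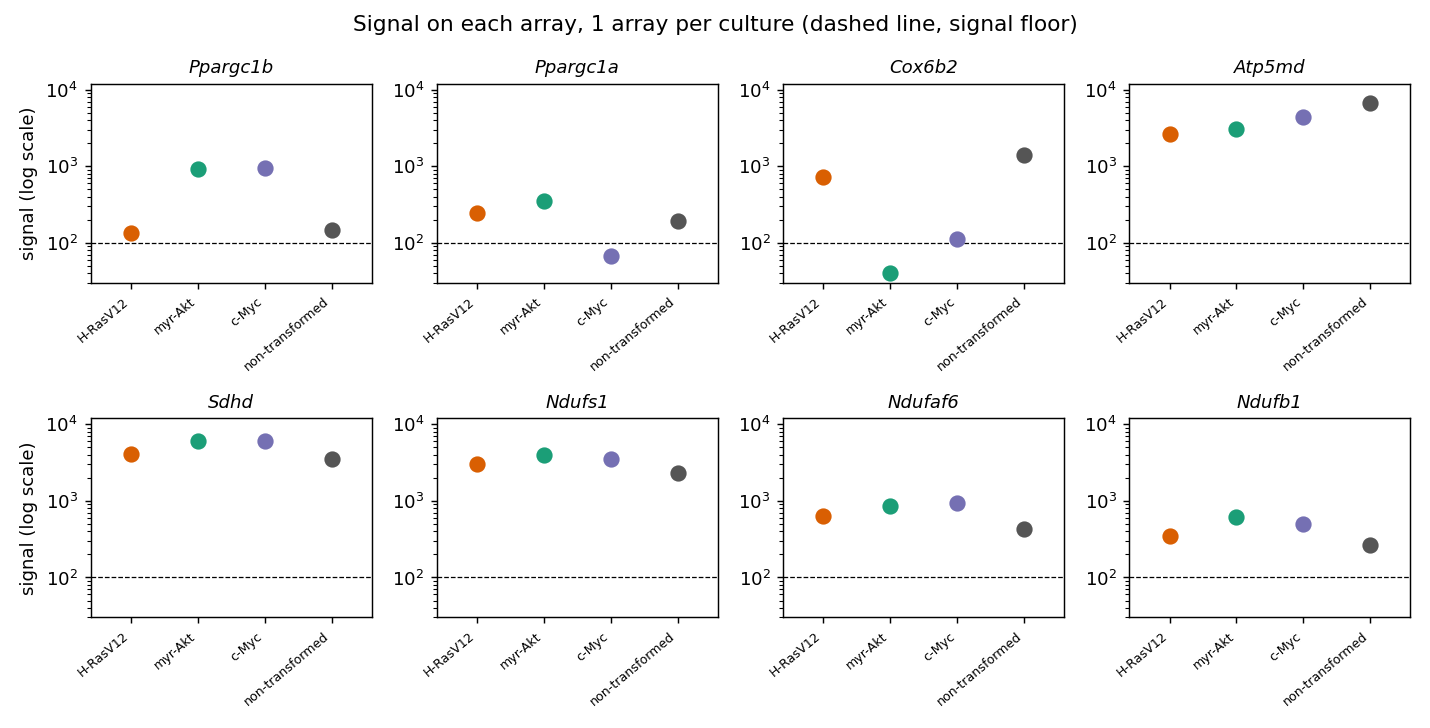
Signal (log scale) of 8 named genes on each of the 4 arrays, 1 point per array, with the signal floor of 100.001 as a dashed line. Ppargc1b lay at 908.5 and 956.9 on the myr-Akt and c-Myc arrays, against 145.2 on the non-transformed array, and Cox6b2 lay at 40.6 and 110.9 there, against 1411.

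Most genes of the set, subunits, assembly factors and coactivators together, differed by less than 1.5-fold across the cultures. Over the 86 measured genes the range across the 4 arrays had a median of 1.27-fold, beside 1.58-fold over the 10679 genes measured in all, and it stayed under 1.5-fold for 68 of the 86 (79.1%), beside 42.9% of all genes. The median log2 difference from non-transformed cells was 0.01 with H-RasV12, 0.21 with myr-Akt and 0.14 with c-Myc. Over all measured genes the same medians were 0.00, -0.02 and 0.00. For the 76 measured subunits alone, without coactivators and assembly factors, they were 0.01, 0.17 and 0.14. With H-RasV12, 46 of the 86 genes were above their non-transformed signal, with myr-Akt 68 and with c-Myc 60, which is 53.5%, 79.1% and 69.8%, beside 50.2%, 46.7% and 47.8% of all measured genes. The myr-Akt array held the highest signal of the 4 for 47 genes, the c-Myc array for 21, the H-RasV12 array for 5 and the non-transformed array for 13. The lowest signal was on the myr-Akt array for 7, c-Myc for 12, H-RasV12 for 28 and non-transformed for 39. These counts were not made over all measured genes, so no share stands beside them. The 3 comparisons with non-transformed cells share the non-transformed array, so their resemblance is not a separate result.

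Few genes passed a set fold. With H-RasV12, 1 of 86 genes was at least 1.5-fold higher than in non-transformed cells and 2 were lower, where 8.87% and 13.7% of all measured genes were. With myr-Akt, 13 were at least 1.5-fold higher and 2 lower, where 16.3% and 22.5% of all measured genes were. With c-Myc, 9 were higher and 4 lower, where 15.3% and 20.4% of all measured genes were. The shares of higher genes for myr-Akt and c-Myc thus lay near or under the share over all genes, and the shares of lower genes lay under it in all 3 comparisons. At 2-fold, H-RasV12 had 0 higher and 1 lower (all genes, 2.08% and 6.27%), myr-Akt 3 higher and 2 lower (4.9% and 12.7%) and c-Myc 2 higher and 1 lower (4.42% and 11.3%).

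**Figure D2:**
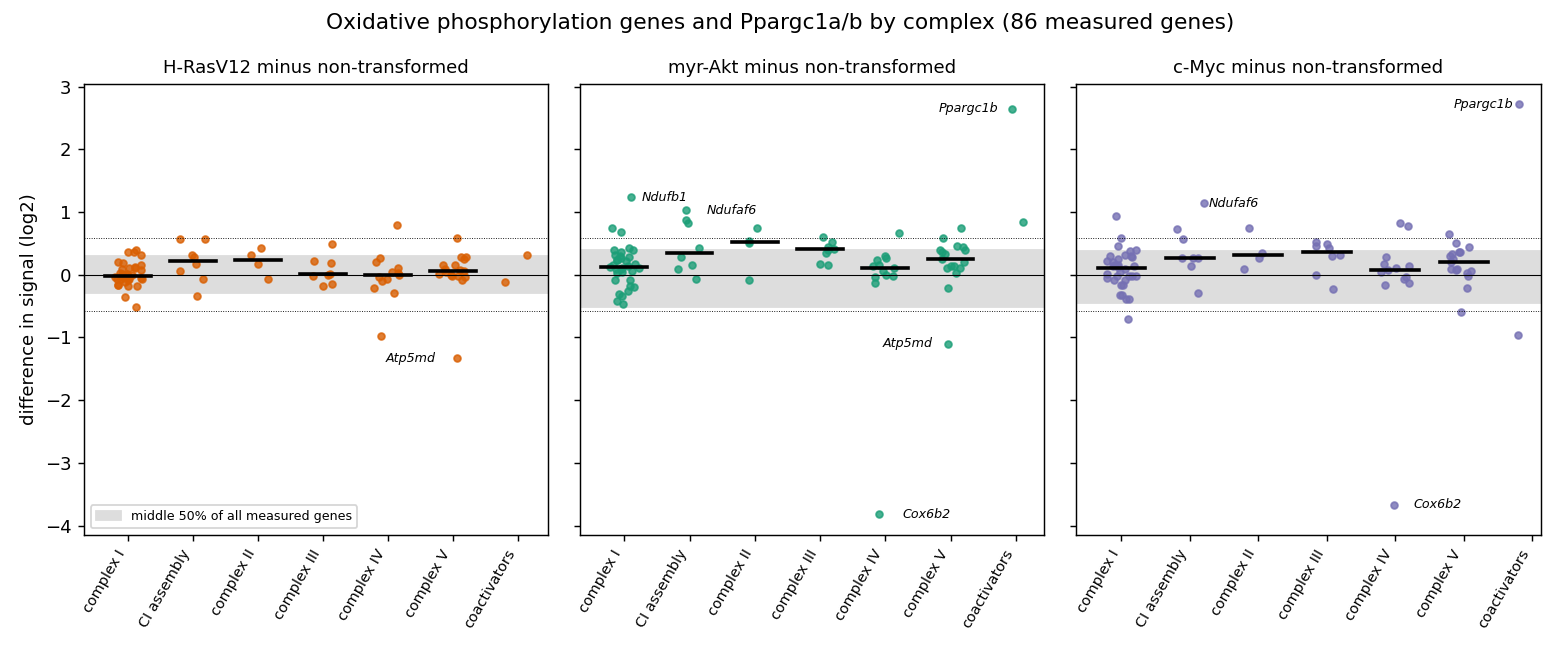
Log2 difference from non-transformed cells for the 86 measured genes, grouped by complex (CI assembly, complex I assembly factors) with the 2 coactivators last, with 1 panel each for H-RasV12, myr-Akt and c-Myc. Points are genes, black bars the group medians, the grey band the middle 50% of all 10679 measured genes and dotted lines 1.5-fold. Complex III sat at a median of 0.01 with H-RasV12, 0.41 with myr-Akt and 0.37 with c-Myc.

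Complex I, the NADH dehydrogenase, was represented by 34 measured subunits of 36, with median log2 differences of -0.01 with H-RasV12, 0.13 with myr-Akt and 0.11 with c-Myc. The subunits did not move alike. The 6 measured core subunits, which carry the flavin and the iron-sulphur clusters or lie next to the quinone site, had medians of 0.13, 0.41 and 0.34 in the same order, and all 6 were above non-transformed cells with myr-Akt and with c-Myc. The 28 measured accessory subunits had medians of -0.04, 0.10 and -0.00. This division by role was made after the values were seen. Ndufs1, the largest core subunit, had signals of 3013 with H-RasV12, 3938 with myr-Akt and 3523 with c-Myc, against 2349 in non-transformed cells. All 3 transformed cultures were thus above the non-transformed one, with log2 differences of 0.36, 0.75 and 0.59. Ndufs8, which holds iron-sulphur clusters, read 6417, 8068 and 6507, against 5016 in non-transformed cells, a log2 difference of 0.69 with myr-Akt and of 0.36 and 0.38 with H-RasV12 and c-Myc.

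The accessory subunit gene Ndufb1 had the largest difference in complex I. Its signal was 345.3 with H-RasV12, 621.1 with myr-Akt and 501.8 with c-Myc, against 263.6 in non-transformed cells, which is 1.31, 2.36 and 1.90 times higher. Ndufv3, a small accessory subunit of the NADH-binding module, went the other way. It read 4417 with H-RasV12, 4573 with myr-Akt and 3864 with c-Myc, against 6299 in non-transformed cells, so that all 3 transformed cultures were lower and the c-Myc culture passed 1.5-fold (log2 difference -0.71). Ndufa4, first described in complex I and now often counted with complex IV, stayed between 12972 and 15652 on all 4 arrays.

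The Ndufaf genes encode factors that help to assemble complex I and are not part of the finished enzyme. All 8 were measured, with median log2 differences of 0.22 with H-RasV12, 0.35 with myr-Akt and 0.27 with c-Myc. Ndufaf6 had signals of 634.5 with H-RasV12, 867.5 with myr-Akt and 938.3 with c-Myc, against 425.6 in non-transformed cells, and was 2.04 and 2.20 times higher with myr-Akt and c-Myc. Ndufaf5, a hydroxylase of the core subunit Ndufs7, read 503.6, 716.5 and 666.5, against 404.3, and was 1.77 and 1.65 times higher with myr-Akt and c-Myc. In both genes all 3 transformed cultures lay above the non-transformed one. Ndufaf4 differed between the myr-Akt and c-Myc cultures. It read 2862 with H-RasV12, 4311 with myr-Akt and 2853 with c-Myc, against 2364 in non-transformed cells, so the myr-Akt culture stood alone at 1.82 times the non-transformed signal. Its next probe set gave larger log2 differences from non-transformed cells, at 0.82, 1.59 and 0.98 with H-RasV12, myr-Akt and c-Myc.

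Complex II, succinate dehydrogenase, also acts in the tricarboxylic acid cycle and is wholly encoded in the nucleus. Sdha, the flavoprotein, had signals of 4668 with H-RasV12, 5067 with myr-Akt and 4168 with c-Myc, against 3472 in non-transformed cells. Sdhb, the iron-sulphur subunit, had 8209, 9406 and 8445, against 6621. Both of these catalytic subunits were higher in all 3 transformed cultures, by 1.20 to 1.46 times. Of the membrane anchors, Sdhd had 4049 with H-RasV12, 6039 with myr-Akt and 6038 with c-Myc, against 3588 in non-transformed cells. It was thus 1.68 times higher with myr-Akt and with c-Myc and 1.13 times higher with H-RasV12. Its partner Sdhc differed from non-transformed cells by no more than 0.09 on the log2 scale in any culture, with 2438, 2403 and 2717, against 2560. The next probe set of Sdhd was dim, between 197.8 and 259.7, and gave log2 differences of 0.18 with myr-Akt and 0.34 with c-Myc.

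Complex III passes electrons from ubiquinol to cytochrome c. All 8 measured Uqcr genes were above non-transformed cells with myr-Akt (median 0.41, between 0.15 and 0.61). With c-Myc 6 of 8 were (median 0.37), and with H-RasV12 4 of 8 (median 0.01). Cyc1, the cytochrome c1 subunit of this complex, lies outside the naming rule and is counted further below with cytochrome c. Its log2 differences were 0.39 with H-RasV12, 0.83 with myr-Akt and 0.53 with c-Myc. Uqcrc2, a core protein of the matrix side, had signals of 4992 with H-RasV12, 7615 with myr-Akt and 7207 with c-Myc, against 4994 in non-transformed cells. By this probe set the H-RasV12 and non-transformed arrays were alike, and the myr-Akt and c-Myc arrays were 1.52 and 1.44 times higher than non-transformed. The next probe set of Uqcrc2 gave log2 differences of -0.31 with H-RasV12, 0.64 with myr-Akt and 0.85 with c-Myc. Uqcrc1, the other core protein, was 1.40, 1.36 and 1.24 times higher with H-RasV12, myr-Akt and c-Myc. Uqcrfs1, the Rieske iron-sulphur protein, was 1.14, 1.44 and 1.41 times higher. Uqcrq and Uqcrb, small subunits near the quinone site, were within 1.17-fold of non-transformed cells in every culture by their brightest probe sets. The next probe set of Uqcrb gave -0.34 with H-RasV12, 0.09 with myr-Akt and 0.21 with c-Myc.

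Complex IV, cytochrome c oxidase, had the smallest medians of the 5 complexes with myr-Akt (0.10) and c-Myc (0.08), and held the gene with the largest difference of the set, Cox6b2, an isoform of subunit 6b best known from testis. Cox6b2 had signals of 719.9 with H-RasV12, 40.6 with myr-Akt and 110.9 with c-Myc, against 1411 in non-transformed cells. It was 1.96 times lower with H-RasV12, at least 14.1 times lower with myr-Akt, where it was under the floor, and 12.7 times lower with c-Myc. The ubiquitous isoform Cox6b1 was almost level, with 15072, 16896 and 17017, against 15749. The gene has 1 single-gene probe set. The Cox6b2 signal was lowest on the myr-Akt and c-Myc arrays. These 2 arrays had the fewest mesenchymal and stellate markers above the floor (9 and 8). They also had the fewest hepatoblast and hepatocyte markers (4 and 4) and biliary and progenitor markers (5 and 4) above it. Mesothelial markers went the other way, with 7 above the floor on each, against 5 with H-RasV12 and 6 in non-transformed cells. The part of any of these cells in the Cox6b2 signal was not tested.

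Several other common subunits of complex IV lay close to non-transformed cells. Cox4i1, which binds ATP as a regulator, differed by 0.13 at most on the log2 scale, Cox6a1 by 0.16, Cox8a by 0.10 and Cox7a2 by 0.27. The next probe set of Cox7a2 gave larger differences, at 0.07 with H-RasV12, 0.54 with myr-Akt and 0.38 with c-Myc, all short of 1.5-fold. Cox7a2l, which joins complexes III and IV into supercomplexes, was lowest with H-RasV12, at 3251, beside 3861 with myr-Akt and 3796 with c-Myc, against 3963 in non-transformed cells. Under the settings used here, Cox7c was the only gene of the set at least 1.5-fold higher in all 3 comparisons, with signals of 755.7, 690.6 and 776.7, against 436.5 in non-transformed cells. Its next probe set was dim and gave log2 differences of 0.63, 0.60 and 1.00. The testis isoform Cox8c read 134.0, 123.2 and 191.4, against 111.1, and the muscle isoform Cox6a2 read between 71.5 and 121.8, both at or near the floor. Of 6 muscle markers with a probe set, 1 (Actn3) was above the floor on any array.

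Complex V, the ATP synthase, had median log2 differences of 0.05 with H-RasV12, 0.26 with myr-Akt and 0.20 with c-Myc over 17 measured subunits, of which 11, 15 and 14 were above non-transformed cells. Atp5a1, the alpha subunit of the F1 head, had signals of 9726 with H-RasV12, 10905 with myr-Akt and 10196 with c-Myc, against 6499 in non-transformed cells. All 3 transformed cultures were higher, with log2 differences of 0.58, 0.75 and 0.65, of which the first lay just short of 1.5-fold. By the next probe set of Atp5a1 they were 0.15, 0.61 and 0.56. Atp5b, the catalytic beta subunit, was 1.21, 1.32 and 1.25 times higher. Atp5g1, a member of the 3 genes for the same c-ring protein, was 1.19, 1.51 and 1.42 times higher, while the 3 c-ring genes had medians of 0.15, 0.11 and 0.08. Atp5e, the epsilon subunit, was 1.02, 1.16 and 1.16 times lower.

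Atp5md, a small membrane subunit also called Usmg5 that takes part in holding ATP synthase dimers together, was the exception in complex V. Its signal was 2639 with H-RasV12, 3095 with myr-Akt and 4419 with c-Myc, against 6655 in non-transformed cells. All 3 transformed cultures were lower, by 2.52, 2.15 and 1.51 times, and H-RasV12 was the lowest. Together with Cox6b2 it made up the 2 genes that were at least 1.5-fold lower in all 3 comparisons. It has 1 single-gene probe set.

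**Figure D3:**
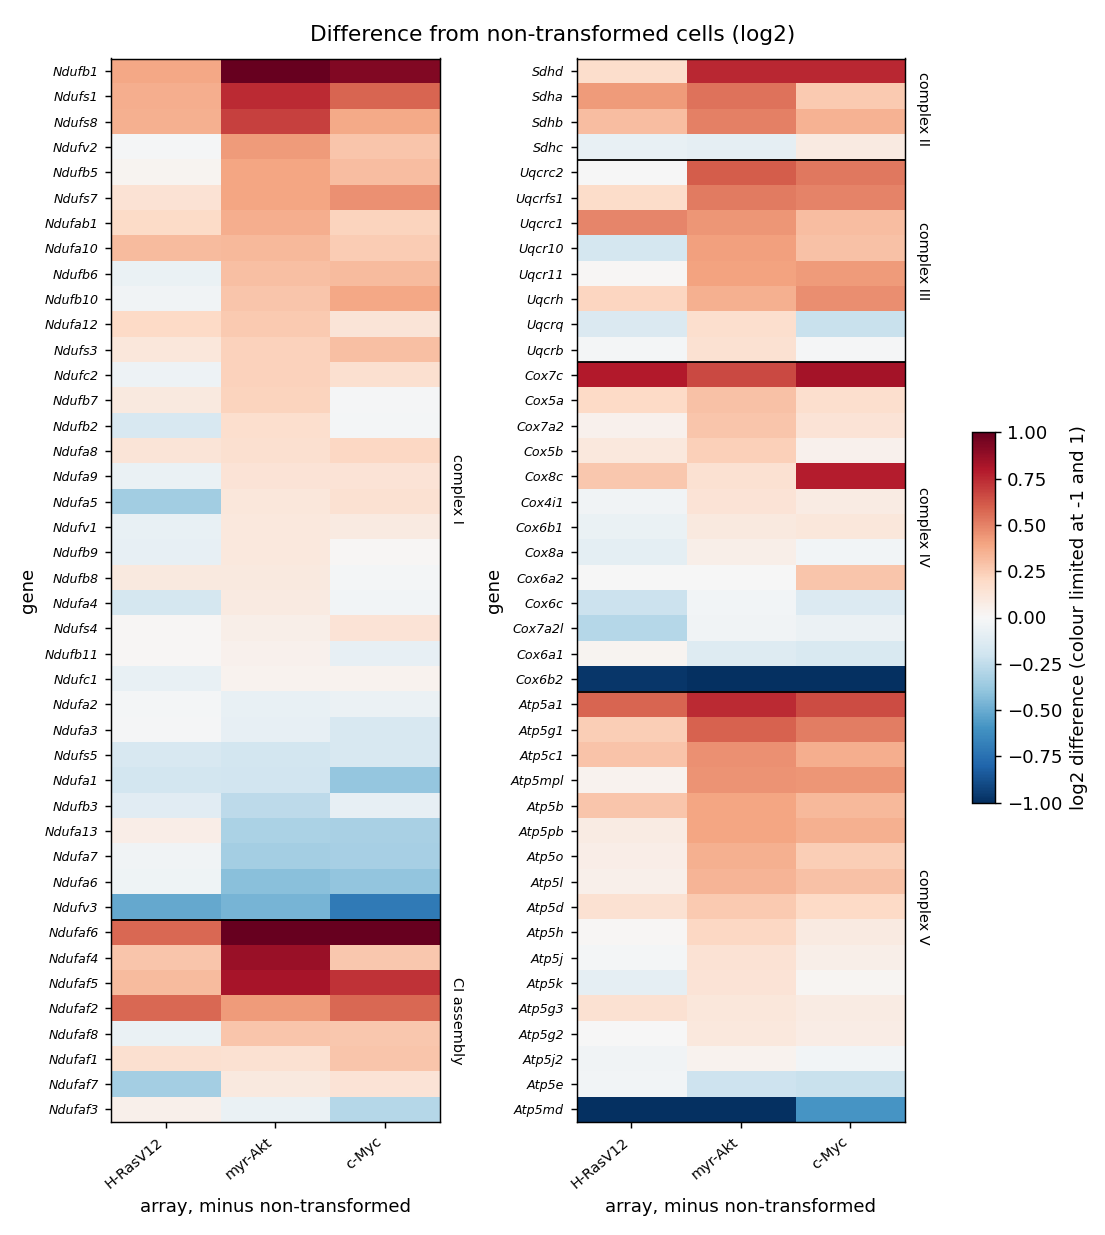
Log2 difference from non-transformed cells for each of the 84 measured subunit and assembly factor genes (rows, by complex and in order of the myr-Akt difference) in the H-RasV12, myr-Akt and c-Myc cultures (columns). Red is higher and blue is lower than non-transformed, with colour limited at -1 and 1. Cox6b2 and Atp5md were blue in all 3 columns, and the core complex III genes Uqcrc2 and Uqcrfs1 were red with myr-Akt and c-Myc.

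Set directly against each other, the H-RasV12 culture lay below the myr-Akt and c-Myc cultures for most of these genes. With H-RasV12, 66 of 86 genes were below the myr-Akt array and 62 of 86 below the c-Myc array. Of all 10679 measured genes, 5208 and 5322 were. The median log2 differences of the set were -0.17 and -0.09, and the medians over all genes were 0.00 in both. At least 1.5-fold higher than with myr-Akt was 1 gene, Cox6b2, and 5 were lower (Ppargc1b, Ndufb1, Uqcrc2, Ndufaf4 and Uqcr10), where 17% and 12.1% of all measured genes were. Against c-Myc, 2 were at least 1.5-fold higher (Cox6b2 and Ppargc1a) and 2 lower (Ppargc1b and Atp5md), where 15.9% and 12.5% of all measured genes were. The complex III subunits had the largest median differences of the 5 complexes, at -0.32 against myr-Akt and -0.28 against c-Myc. Between the myr-Akt and c-Myc cultures, Ppargc1a and Ndufaf4 were at least 1.5-fold higher with myr-Akt and Cox8c lower, where 4.53% and 6.19% of all measured genes were. The median of that comparison was 0.06, with 58 of 86 genes (67.4%) above 0, beside 44.2% of all measured genes. At 2-fold, H-RasV12 against myr-Akt had 1 higher and 1 lower (all genes, 9.35% and 4.38%), H-RasV12 against c-Myc 2 higher and 1 lower (8.76% and 5.11%) and myr-Akt against c-Myc 1 higher and 0 lower (1.53% and 2.01%). These 3 direct comparisons share arrays with one another and with those above.

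Promoters of these genes are known for short motifs of NRF1, ETS factors such as GABP, YY1 and the estrogen-related receptors, the last of which PGC-1beta coactivates. RefSeq promoter windows (mouse GRCm38.p6, 250 bases before to 50 after the gene start) were matched to 75 of the 92 genes. The core NRF1 motif GCGCATGC was found on either strand in 14.7% of them, against 3.05% of all 27025 genes with a window and 6.40% of those measured here. The ETS motif CCGGAAG was in 25.3%, against 9.93% and 21.0%. The YY1 motif AAGATGGC was in 13.3%, against 3.19% and 5.57%. The estrogen-related receptor motif TCAAGGTCA was in 2 of the 75 (2.67%), Sdhd and Atp5g3, against 0.466% and 0.310%. The E-box CACGTG, which MYC and other factors bind, was in 8% of them, against 8.09% and 12.2%. NRF1 matches may overlap, since the motif is nearly its own complement. These are matches of letters and say nothing of binding.

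The windows shown here are those of the complex II genes Sdhd and Sdhb, of the assembly factors Ndufaf4 and Ndufaf5, which were higher with myr-Akt, and of Cox6b2, which was lower in all 3 transformed cultures. They are written 5′ to 3′ on the gene's strand, and capitals mark matches to the 5 motifs on either strand.
Sdhd (chr9:50603800-50604099, - strand): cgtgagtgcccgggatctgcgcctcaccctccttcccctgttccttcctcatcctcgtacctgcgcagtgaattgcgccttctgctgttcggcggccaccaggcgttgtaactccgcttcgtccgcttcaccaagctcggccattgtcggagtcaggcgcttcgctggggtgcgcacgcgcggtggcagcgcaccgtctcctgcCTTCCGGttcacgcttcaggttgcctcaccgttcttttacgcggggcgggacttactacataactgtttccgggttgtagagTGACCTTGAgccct
Sdhb (chr4:140961021-140961320, + strand): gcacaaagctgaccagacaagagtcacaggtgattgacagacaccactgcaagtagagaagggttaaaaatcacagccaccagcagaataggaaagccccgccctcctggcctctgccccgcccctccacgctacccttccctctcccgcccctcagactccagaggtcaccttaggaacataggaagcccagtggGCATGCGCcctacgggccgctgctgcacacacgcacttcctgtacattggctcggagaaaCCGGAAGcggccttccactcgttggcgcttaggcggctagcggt
Ndufaf4 (chr4:24897833-24898132, + strand): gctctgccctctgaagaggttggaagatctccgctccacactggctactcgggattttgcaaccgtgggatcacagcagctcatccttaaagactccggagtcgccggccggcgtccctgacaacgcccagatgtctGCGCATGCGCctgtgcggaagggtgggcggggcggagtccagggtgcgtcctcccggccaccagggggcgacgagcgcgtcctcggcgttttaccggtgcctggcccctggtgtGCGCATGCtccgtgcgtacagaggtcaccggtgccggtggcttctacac
Ndufaf5 (chr2:140170396-140170695, + strand): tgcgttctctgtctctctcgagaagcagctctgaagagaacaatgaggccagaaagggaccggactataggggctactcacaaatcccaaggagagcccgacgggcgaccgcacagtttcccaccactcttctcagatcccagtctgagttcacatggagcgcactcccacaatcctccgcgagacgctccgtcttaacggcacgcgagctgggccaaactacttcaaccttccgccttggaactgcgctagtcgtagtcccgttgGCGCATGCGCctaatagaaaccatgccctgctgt
Cox6b2 (chr7:4753045-4753344, - strand): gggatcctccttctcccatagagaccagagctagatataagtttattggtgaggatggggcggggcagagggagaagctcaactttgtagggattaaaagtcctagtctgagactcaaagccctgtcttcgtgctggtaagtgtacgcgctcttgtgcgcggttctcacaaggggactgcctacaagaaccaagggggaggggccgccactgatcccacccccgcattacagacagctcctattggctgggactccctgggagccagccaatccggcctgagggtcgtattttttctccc
Sdhd held an ETS match and, near the end of the window, the estrogen-related receptor motif, both on the opposite strand. Sdhb held an NRF1 and an ETS match. Ndufaf4 held 3 NRF1 matches, of which an overlapping pair forms the palindrome, Ndufaf5 held 2 that overlap, and these letters were not in the Cox6b2 window. The windows of Ndufs8 and Atp5g1, both at least 1.5-fold higher with myr-Akt, are not shown and held no NRF1 match. Of the 11 genes with an NRF1 match, Ndufa6 (-0.42) and Cox6a1 (-0.13) were lower with myr-Akt. The others were higher, as were 68 of the 86 measured genes. Whether a match goes with the direction of a difference was not tested.

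Further mitochondrial genes were counted in lists chosen by function. Of 25 measured protein import genes, 12 were at least 1.5-fold higher with myr-Akt and 7 with c-Myc, 3 with H-RasV12 and 0 lower in any, with medians of 0.30, 0.56 and 0.52 with H-RasV12, myr-Akt and c-Myc. That is 48% with myr-Akt, 28% with c-Myc and 12% with H-RasV12, beside 16.3%, 15.3% and 8.87% of all measured genes, while 22.5%, 20.4% and 13.7% of all measured genes were lower. Timm9, a chaperone of the intermembrane space, was at 1.33 and 1.43 with myr-Akt and c-Myc, and Tomm70a, a receptor of the outer membrane, at 1.41 and 1.12. Of 20 genes for the upkeep and transcription of mitochondrial DNA, 6 passed 1.5-fold upward and 2 downward with myr-Akt, and 7 higher and 2 lower with c-Myc (medians 0.45 and 0.46, with 0.19 for H-RasV12). The higher genes made up 30% with myr-Akt and 35% with c-Myc, beside 16.3% and 15.3% of all measured genes, and the lower ones 10% in each, beside 22.5% and 20.4%. Elac2, which cuts tRNA ends, was at 1.21 and 1.15, Twnk, the mitochondrial helicase, at 1.01 and 0.95, while Tk2, a thymidine kinase, was at least 2.12 times lower with myr-Akt, where it was under the floor, and at -0.95 with c-Myc.

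Of 24 measured genes of the tricarboxylic acid cycle and pyruvate entry, 7 passed 1.5-fold upward and 3 downward with myr-Akt and 3 higher and 3 lower with c-Myc (medians 0.45 and 0.30, with 0.05 for H-RasV12). These are 29.2% higher and 12.5% lower with myr-Akt, beside 16.3% and 22.5% of all measured genes, and 12.5% each way with c-Myc, beside 15.3% and 20.4%. Suclg2, a subunit of succinyl-CoA ligase, was at 0.87 with myr-Akt and 1.11 with c-Myc. The Pdk genes encode kinases that inhibit pyruvate dehydrogenase, and they differed among themselves. Pdk4 read 841.7 with H-RasV12, 45.1 with myr-Akt and 57.8 with c-Myc, against 1300.4 in non-transformed cells, which is at least 13.0 times lower with myr-Akt and with c-Myc. Pdk1 was at -1.92 and -1.13 in those cultures. Pdk3, named after its values were seen, was higher, at 0.44 and 0.47, with signals of 2006 with myr-Akt and 2040 with c-Myc, against 1475 in non-transformed cells. Pdk2 was at the floor on every array.

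Among 19 measured regulators of mitochondrial biogenesis other than the 2 coactivators, 5 passed 1.5-fold upward and 2 downward with myr-Akt and 8 higher and 2 lower with c-Myc, while H-RasV12 had 0 higher and 2 lower (medians 0.10 with myr-Akt, 0.36 with c-Myc and 0.26 with H-RasV12). The higher genes made up 26.3% with myr-Akt and 42.1% with c-Myc, beside 16.3% and 15.3% of all measured genes, and the lower ones 10.5% in each, beside 22.5% and 20.4%. With H-RasV12 the shares were 0% higher and 10.5% lower, beside 8.87% and 13.7% of all measured genes. Pprc1, the third member of the PGC-1 family, was at 0.55 with H-RasV12, 0.77 with myr-Akt and 1.08 with c-Myc, and Sirt1, a deacetylase of PGC-1alpha, at 0.39, 1.10 and 1.39. Pparg, a nuclear receptor that PGC-1 proteins coactivate, was at -0.23 with H-RasV12 and -1.73 with myr-Akt and was at least 4.26 times lower with c-Myc. Of 16 measured genes of fatty acid oxidation, 1 passed 1.5-fold upward and 2 downward with myr-Akt, and 0 upward and 2 downward with c-Myc (medians -0.13 and 0.01, with 0.03 for H-RasV12), with Hadhb at 0.74 and Cpt1c at -1.57 with myr-Akt. At 6.25% higher and 12.5% lower with myr-Akt and 0% and 12.5% with c-Myc, the shares of this list lay under those of all measured genes given above.

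A list of 21 measured genes covered cytochrome c, cytochrome c1 of complex III (Cyc1), ubiquinone synthesis and other electron entry. Of these, 7 passed 1.5-fold upward and 1 downward with myr-Akt, and 4 upward and 4 downward with c-Myc. The medians were 0.18, 0.13 and 0.26 with H-RasV12, myr-Akt and c-Myc. The higher genes made up 33.3% with myr-Akt and 19% with c-Myc, beside 16.3% and 15.3% of all measured genes, and the lower ones 4.76% and 19%, beside 22.5% and 20.4%. Dhodh, which feeds electrons from pyrimidine synthesis to ubiquinone, was at 1.34 and 1.64 with myr-Akt and c-Myc. Sqor, which feeds in electrons from sulphide, read 810.3 with H-RasV12, 130.1 with myr-Akt and 54.7 with c-Myc, against 1092 in non-transformed cells, a log2 difference of -3.07 with myr-Akt and at least 10.9 times lower with c-Myc. Of 40 measured assembly factors without the Nduf prefix, 8 passed 1.5-fold upward and 1 downward with myr-Akt and 7 higher and 1 lower with c-Myc, among them Coa7 (1.31 and 0.99), Sco2 (1.07 and 1.14), which delivers copper to complex IV, and Lrpprc (1.05 and 0.96), which stabilises mitochondrial mRNAs. The higher assembly factors made up 20% with myr-Akt and 17.5% with c-Myc, near the 16.3% and 15.3% of all measured genes, and the lower ones 2.5% in each. Of 12 measured carriers, Slc25a33, a pyrimidine nucleotide carrier, was the 1 at least 1.5-fold higher in both cultures (1.76 and 1.24). That is 8.33% in each, under the 16.3% and 15.3% of all measured genes. With H-RasV12, 2 carriers were higher (16.7%, beside 8.87% of all measured genes), and 0 were lower in any culture.

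**Figure D4:**
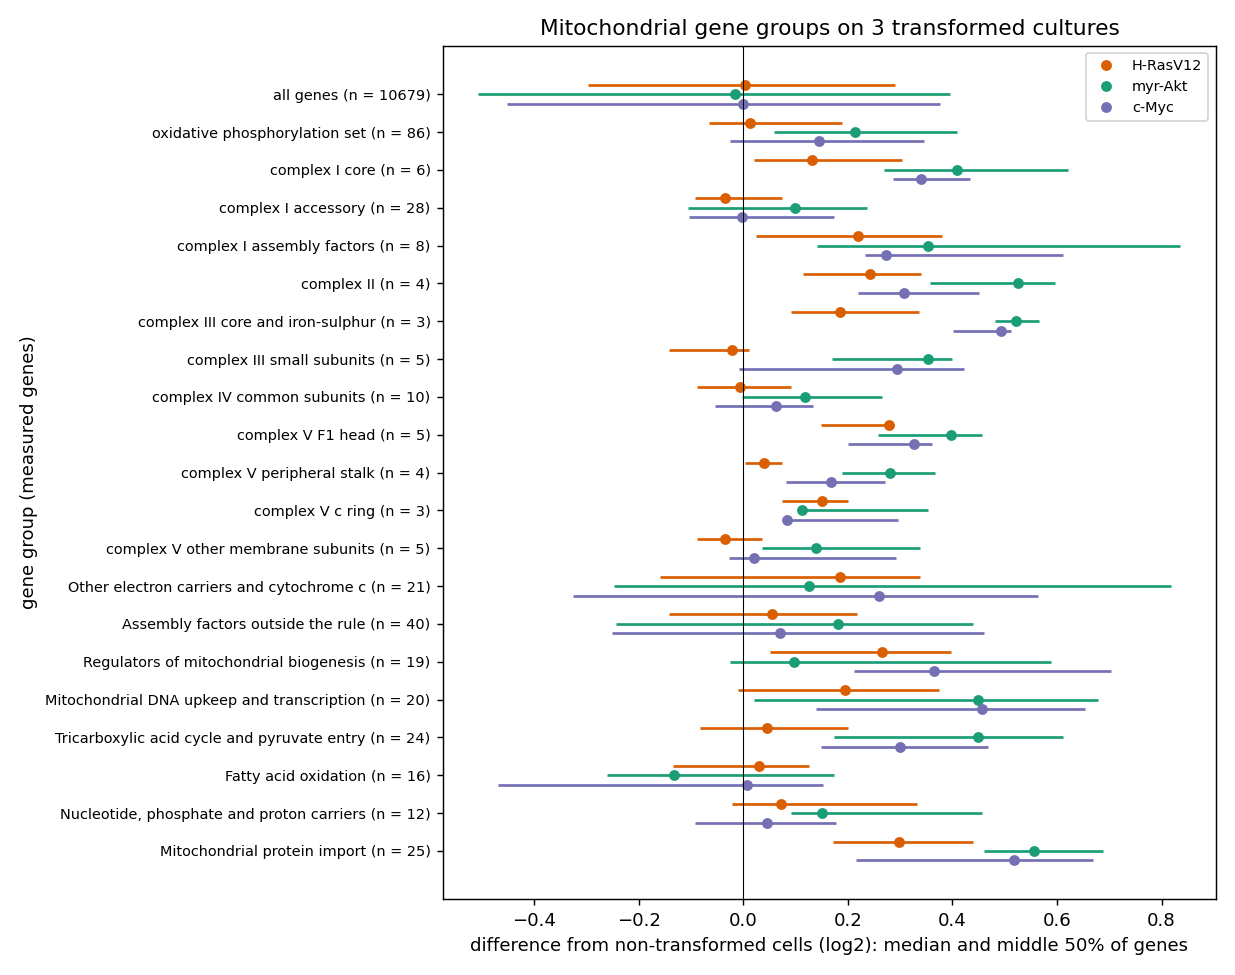
Median log2 difference from non-transformed cells (points) and the middle 50% of genes (lines) for all measured genes, for the oxidative phosphorylation set as a whole and by role, and for 8 further mitochondrial gene lists, in the H-RasV12, myr-Akt and c-Myc cultures. Protein import had the medians 0.30, 0.56 and 0.52, against 0.01, 0.21 and 0.14 for the oxidative phosphorylation set.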

How the data were processed

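RNA of 4 cultures was measured on 1 array each. The deposited values are linear signal intensities that the authors computed with MAS5, a step named in the submitters' processing notes without a version or filter. The 2% trimmed mean was equal on all 4 arrays. Of 45101 probe sets, 64 were controls, 34945 had 1 gene symbol in the platform annotation, 932 several and 9160 none. Genes were named from single-symbol probe sets alone, so that 8 symbols that match the rule were not analysed here.

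Signals below 20% of the trimmed mean were raised to that value before conversion to log2. Genes above the floor on at least 1 array (10679) form the background. Calls were set at 1.5-fold and 2-fold, and no test was possible with 1 array per group, whose number limits the precision. Where 1 side of a difference lay at the floor, the fold is a lower limit. Lists were matched through Entrez identifiers of RefSeq GRCm38.p6. Named genes were the coactivators, the Sdh genes, tissue isoforms and their partners, up to 10 genes per comparison and direction past 1.5-fold, the extremes of each complex, and up to 4 per further list. Genes that also lie on a several-symbol probe set were not named, except in a full count. A few further subunits were named for their role or promoter motifs after their values were seen. The members and lists were chosen with earlier results of these data known. Counting at 2-fold was checked on simulated arrays, with changes set into bright genes. The 1.5-fold rule was not checked in this way, nor were changes of dim signals. Alternatives were 2 other floors, a pseudocount, quantile normalization, median centring and 3 other choices of probe set. Python 3.11.15, numpy 2.4.6, pandas 2.3.3, scipy 1.17.1 and matplotlib 3.10.9 were used.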

Additional observations from a re-analysis of the deposited data

Results flagged for a closer look

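Ppargc1a passed 1.5-fold in opposite directions in 2 cultures, each set against the same non-transformed array: its log2 difference was 0.85 with myr-Akt and -0.95 with c-Myc, the second a bound set by the floor. The difference between the cultures was not tested, since each is 1 array. No group held enough arrays for a search for outlying samples.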

How the results depend on the processing

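No paired analysis was possible because each group has 1 array. For the same reason no array could be left out, and a value counts as having moved where it changed by 1.5-fold or more, a count where it changed by over 1.5 times. Of 192 recomputed counts 47 moved, and of 426 recomputed log2 differences 18 moved. The log2 differences recomputed were those of 42 group medians and of the 2 coactivators. Other genes entered only the counts and medians, so their own signs were not followed. Of the coactivator differences that had reached 1.5-fold, none took the opposite sign. Ppargc1b has 1 single-gene probe set, so the choice of probe set could not change it. Of the 42 group medians, all smaller than 1.5-fold, 12 had another sign or 0 under at least 1 alternative. The largest of these were the complex I assembly factors for H-RasV12 against myr-Akt (-0.39, and 0.04 without probe sets that may match several transcripts), the same factors for H-RasV12 against c-Myc (-0.22, up to 0.06) and complex II for H-RasV12 against non-transformed (0.24, and -0.05 by the next brightest probe set). Complex III with H-RasV12 against non-transformed, at 0.01, kept its sign in 4 of 8 alternatives. The median over all the genes of the set kept its sign under all 8 alternatives with myr-Akt (0.17 to 0.23) and c-Myc (0.10 to 0.21) and lay between -0.02 and 0.03 with H-RasV12, each against non-transformed. In what follows, counts are genes of the set, and the cause of a change was not tested unless fewer genes were measured.

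With a floor at 10%, c-Myc against non-transformed had 2 genes at least 2-fold lower, and myr-Akt against c-Myc had 1 at least 2-fold lower and 3 at least 1.5-fold lower. Ppargc1a was then at -1.55 with c-Myc against non-transformed, 1.87 for H-RasV12 against c-Myc and 2.40 for myr-Akt against c-Myc. With a floor at 40%, H-RasV12 against c-Myc had 1 gene higher at 2-fold and 1 at 1.5-fold, and myr-Akt against c-Myc had 0 higher at 2-fold and 0 lower at 1.5-fold. Ppargc1a was then at 0.00, 0.27 and 0.80 in those 3 comparisons.

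With a pseudocount added instead of a floor, 1 gene was at least 2-fold higher with myr-Akt and 1 with c-Myc, against non-transformed, 3 were at least 1.5-fold lower for H-RasV12 against myr-Akt, and 1 was higher and 0 lower at 1.5-fold for myr-Akt against c-Myc. Ppargc1b was then at 2.04 with myr-Akt and 2.11 with c-Myc, against non-transformed, and H-RasV12 was at -2.11 (-2.105) against myr-Akt and -2.17 against c-Myc. With quantile normalization, 3 genes passed 1.5-fold upward with H-RasV12 and 4 passed 2-fold upward with c-Myc, against non-transformed, 3 were at least 1.5-fold lower for H-RasV12 against myr-Akt, and 1 was higher and 0 lower at 1.5-fold for myr-Akt against c-Myc. Centring on the median left 2 at least 1.5-fold lower for H-RasV12 against myr-Akt.

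With the mean over probe sets, 8 genes were at least 1.5-fold higher with myr-Akt against non-transformed. H-RasV12 against c-Myc then had 1 higher at 2-fold, 1 higher at 1.5-fold and 5 lower at 1.5-fold, and myr-Akt against c-Myc had 0 higher at 2-fold and 1 higher and 0 lower at 1.5-fold. Ppargc1a was at 0.25 with myr-Akt and -0.19 with c-Myc, against non-transformed, 0.25 for H-RasV12 against c-Myc and 0.45 for myr-Akt against c-Myc. With probe sets that may match several transcripts left out, 4 genes were at least 1.5-fold lower with H-RasV12 and 4 with myr-Akt, against non-transformed, and 2 for myr-Akt against c-Myc.

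The next brightest probe set exists for 52 genes, so fewer genes could be counted. Against non-transformed, H-RasV12 then had 0 lower at 2-fold and 2 higher and 1 lower at 1.5-fold. With myr-Akt there were 1 higher and 0 lower at 2-fold and 5 higher and 1 lower at 1.5-fold, and with c-Myc 1 higher and 0 lower at 2-fold and 5 higher and 1 lower at 1.5-fold. H-RasV12 against myr-Akt had 0 higher and 0 lower at 2-fold and 0 higher at 1.5-fold, H-RasV12 against c-Myc had 0 higher and 2 lower at 2-fold and 0 higher at 1.5-fold, and myr-Akt against c-Myc had 0 higher at 2-fold and 1 at 1.5-fold. The median of the complex I assembly factors was 0.96 with myr-Akt against non-transformed. It rests on Ndufaf4 (1.59) and Ndufaf8 (0.33) alone, since the others have no further probe set. Ppargc1a was at 0.00 with c-Myc against non-transformed, 0.00 for H-RasV12 against c-Myc and 0.43 for myr-Akt against c-Myc. Signals near the floor limit what can be said of Ppargc1a, Cox8c and Cox6a2.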

Other observations

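Mitochondrially encoded subunits lie outside the rule, and 1 of them, ND5 of complex I, has a single-gene probe set here. It was looked at after the nuclear genes were seen. Its signal was 14146 with H-RasV12, 12394 with myr-Akt and 13645 with c-Myc, against 20060 in non-transformed cells, which is a log2 difference of -0.50, -0.69 and -0.56. All 3 transformed cultures were lower for this transcript, each against the same non-transformed array. The 34 measured nuclear subunits of the same complex had medians of -0.01, 0.13 and 0.11. The 6 core ones among them, set apart after the values were seen, had 0.13, 0.41 and 0.34, and the 28 accessory ones -0.04, 0.10 and -0.00.

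Of the genes with a further single-gene probe set whose difference was off 0 by both, 32 of 46 had the same direction by both with H-RasV12, 46 of 48 with myr-Akt and 41 of 47 with c-Myc, each against non-transformed. In the comparison of myr-Akt with c-Myc it was 31 of 48.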
